A study of Homo sapiens with 36 samples.

Results

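Without doxycycline, the MIA PaCa-2 line that carries the PELO guide differed at 48 h from the line that carries the control guide. In it 39 of 47 genes of DNA replication and 21 of 34 of mitosis were higher, beside 6.37% of all genes tested. Lower were 15 of 21 genes of amino acid synthesis and 11 of 20 of the integrated stress response, beside 4.72% of all genes tested. In these lists the untreated line with a guide against HBS1L leaned the same way. The comparison sets the 3 libraries titled as PELO, 48 h, no doxycycline, against the 3 titled as control at that time without it, 6 of the 36 libraries of the series, chosen by title alone. MIA PaCa-2 is an established human pancreatic cancer cell line. The cells of all 36 libraries carried doxycycline-inducible Cas9 and grew in RPMI with 10% tetracycline-free serum. The control group carried a non-targeting guide (sgRNA NTC) and the PELO group a guide against PELO; neither received doxycycline, the agent that induces the knockout and that other groups received at 2 µg/mL. The same untreated lines at 96 h and the untreated line with a guide against HBS1L at 48 h, with 3 libraries each, are used for comparison. The series' design text concerns the effect of losing PELO or HBS1L where the SKI complex is destabilised, and the untreated groups are the state without induced loss. The labels do not say whether a line is a pool or 1 clone, so guide, line and culture cannot be told apart. Whether the 3 replicates of a group are separate cultures is not stated either, and p-values here speak only to how far these libraries vary, which may be technical.

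PELO and HBS1L form a complex that recognises ribosomes stalled on a message and helps to split them, and the SKI complex threads such messages into the RNA exosome for decay. In the integrated stress response, phosphorylated eIF2 slows general translation while the transcription factor ATF4 is made, and ATF4 switches on genes for amino acid synthesis, uptake and tRNA charging. E2F factors, released from RB proteins as cells pass from G1 into S phase, switch on the genes of DNA replication, and a later wave of genes runs mitosis.

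The 6 libraries held 45356024 to 56228942 counts. Where 3 values stand against 3, the control libraries come first. Levels are CPM, counts relative to library size, on scaled library sizes, differences are log2 fold changes of the PELO line over the control line ± SE with 3 libraries per line, and a gene is called where the adjusted p is under 0.05. Mitochondrial messages took 2.43 to 2.6% of the counts in 5 libraries and 3.22% in PELO replicate 3. That library also stood apart from the other PELO libraries: counts of replicates 1 and 2 differed by a chi-square per degree of freedom of 2.26, against 21.1 and 23.2 for pairs with replicate 3 and 5.66 to 10.4 among the control libraries. The line is epithelial in origin, and the 25 epithelial and keratin genes of a list, of which 19 passed the filter, summed to 3528 to 4004 CPM. A list of 29 mesenchymal and matrix genes summed to more, 10110 to 11200 CPM in the 6 libraries. These sums do not test the identity of the cells. No library held more than 1 count of any of 8 genes of chromosome band 9p21, a region whose loss MIA PaCa-2 is known for. Markers of other cells were mostly near 0: PTPRC of leukocytes had at most 3 counts, PECAM1 of endothelial cells and LUM of fibroblasts had 0 counts, and acinar and endocrine pancreas genes at most 1 count each. COL1A2, COL3A1, CDH5, ENG, CD14 and CD68, which appear on such lists, were expressed in all 6 libraries, at 160 counts or more. ACTA2 (80 to 128 counts) and EMCN (66 to 121 counts) were present in each as well. ITGAM, COL1A1, TIE1 and PDGFRB had 10 to 43 counts. Over the leukocyte list the summed level was 25.8 to 26.9 CPM in the control line and 30.4 to 31.7 CPM in the PELO line, with 1 of 3 tested members higher (CD68, a protein of lysosomes, 0.31 ± 0.05, adjusted p = 1e-05). Of 4 tested endothelial genes EMCN was higher (0.47 ± 0.14, adjusted p = 0.0193). Its call was lost without control replicate 2 (0.31, adjusted p = 0.204), PELO replicate 2 (adjusted p = 0.0657) or PELO replicate 3 (adjusted p = 0.0884), and with only the 6 libraries compared (adjusted p = 0.0724). Of 5 tested fibroblast genes 0 were called by edgeR's quasi-likelihood test, DESeq2 or limma-voom (2 with an unadjusted p under 0.05), and 1 was called by edgeR with library totals in place of TMM. Fibroblast genes had a summed level of 170.6 to 181.1 CPM in the control line and 155.1 to 163.4 CPM in the PELO line. The part of these markers in the results was not tested.

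The genes that the guides target differed little in message level. PELO (ENSG00000152684.11, chromosome 5, 52787940 to 52804046, + strand), in GENCODE 29 on GRCh38, lay at 26.5, 27.8 and 28.3 CPM in the control libraries and 23.7, 25.9 and 26.0 CPM in the PELO libraries. The PELO libraries were all below the control libraries, by a narrow gap, and the log2 fold change was -0.13 ± 0.05, adjusted p = 0.144; with library totals in place of scaled sizes the gene was called at -0.17, adjusted p = 0.0193. HBS1L (ENSG00000112339.15, chromosome 6, 134960378 to 135103056, - strand) lay at 123, 122 and 125 CPM in the control libraries and 130.4, 133 and 133 CPM in the PELO libraries (0.10 ± 0.03, adjusted p = 0.0341). All 3 PELO libraries were above all 3 control libraries, yet the call was lost when any one of 5 of the 6 libraries was left out (adjusted p = 0.0709 to 0.123). With library totals in place of TMM the log2 fold change of HBS1L was 0.058 (adjusted p = 0.248). ITGA1, whose exons overlap those of PELO, stayed between 0.0176 and 0.128 CPM in the 6 libraries (1.75 ± 0.83, adjusted p = 0.194), near or under the level of 3 counts for the most part. The PELO libraries were all above the control libraries. A message level says nothing of an edit that leaves the message in place.

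Over all genes the difference between the lines was broad and small. Of 20767 genes tested, 2303 (11.1%) were called, 1322 (6.37%) higher and 981 (4.72%) lower in the PELO line, with a median size of 0.264 on the log2 scale. Only 21 higher and 70 lower genes differed by 2-fold or more, and 2242 of the 2303 had no overlap between the 3 libraries of each line. Such separation was common with or without a call. Of all 20767 genes, 2834 (13.6%) had every PELO library above every control library, and 2746 (13.2%) had every one below. By edgeR's quasi-likelihood test 4898 genes had an unadjusted p under 0.05. The split between higher and lower depended on scaling: with library totals 886 were higher and 1518 lower, as the median of all genes moved from 0.00251 to -0.0399. Without PELO replicate 3 there were 1006 higher and 702 lower. Calls were most frequent among genes over 100 CPM (20.7%) and least among genes under 1 CPM (2.31%), with 15.4% at 10 to 100 CPM. The counts of list members below stand beside the shares of all genes, 6.37% higher and 4.72% lower. They were not matched for level.

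**Figure D1:**
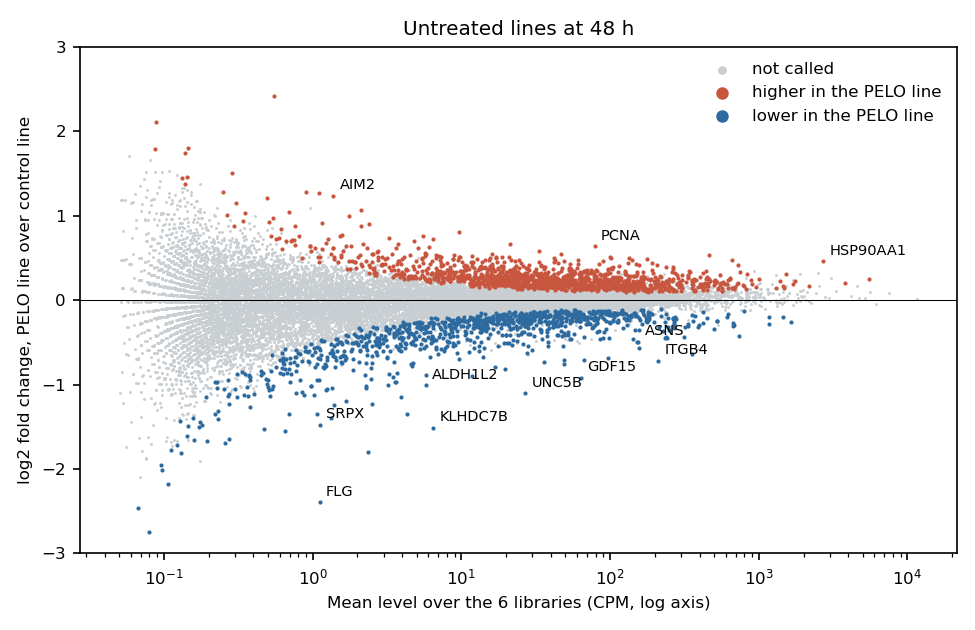
Each point is 1 of the 20767 genes tested, by its mean level over the 6 untreated 48 h libraries (CPM, log axis) and its log2 fold change, PELO line over control line; called genes are coloured, 56 genes under 0.05 CPM and 5 beyond a log2 change of 3 are not drawn. Among abundant genes the called differences lie close to 0, and the larger ones are mostly lower in the PELO line.

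Genes of DNA replication had the largest share of calls among the lists. All 47 tested members had a positive log2 fold change, 39 were called higher and 0 lower, beside 6.37% and 4.72% of all genes, and their median was 0.31 beside 0.00251 for all genes. In 42 of them every PELO library was above every control library, as in 13.6% of all genes tested. The summed level was 2380 to 2417 CPM in the control line and 2978 to 3020 CPM in the PELO line. PCNA, the sliding clamp that holds polymerases on DNA, lay at 62.6, 60.8 and 61.4 CPM in the control libraries and 93.9, 94.9 and 99.5 CPM in the PELO libraries. The groups were well apart, with 0.64 ± 0.06, adjusted p = 3.25e-10. MCM4, a subunit of the replicative helicase, lay at 111, 111 and 109 CPM in the control libraries and 160.5, 159 and 150.1 CPM in the PELO libraries (0.50 ± 0.05, adjusted p = 4.06e-09). RRM2, the inducible subunit of ribonucleotide reductase, lay at 132, 122 and 129 CPM in the control libraries and 168, 172 and 177 CPM in the PELO libraries (0.43 ± 0.05, adjusted p = 1.38e-07). DTL, an adaptor of the ubiquitin ligase that removes CDT1 when DNA is replicated, lay at 33.4, 33.7 and 37.4 CPM in the control libraries and 48.7, 50.9 and 47.7 CPM in the PELO libraries (0.50 ± 0.06, adjusted p = 7.02e-07). Without PELO replicate 3, 36 members were called higher. In none of these 4 genes did the lines overlap. The 8 members that were not called included the helicase subunit MCM6, named with its value known, at 112, 119.6 and 125 CPM against 135, 136 and 124 CPM (0.14 ± 0.05, adjusted p = 0.0777), which was called without PELO replicate 3 (adjusted p = 0.0338).

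E2F binding letters were looked for in the promoters of these genes, because the list is largely one of E2F targets. RefSeq windows (GRCh38.p14) cover a start site and, for the most part, the bases upstream of it, and 38 of the list's genes had one. The letters TTTCCCGC, on either strand, were in 11 of the 38 (28.9%) and in 1.66% of 27305 promoters; TTTGGCGC was in 9 (23.7%) and in 0.659%. No window of the list held both, so 20 of 38 held one or the other, as did 2 of 28 windows of mitosis genes and 2.31% of all. Shown are 30 bases around the match in 4 members, written along the gene's strand with the match in capitals; in PCNA it lies on the opposite strand. CDC6 and E2F1 were picked for these matches, outside the rule for naming genes.
PCNA promoter, chr20:5126663-5126692 (- strand): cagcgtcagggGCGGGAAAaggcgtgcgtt
CDC6 promoter, chr17:40287875-40287904 (+ strand): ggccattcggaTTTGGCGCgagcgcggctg
E2F1 promoter, chr20:33686387-33686416 (- strand): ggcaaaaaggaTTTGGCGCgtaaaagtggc
DTL promoter, chr1:212035729-212035758 (+ strand): cgtgacgtcagTTTGGCGCggagtttggcg
CDC6, which loads the helicase at origins, lay at 26.6, 25.2 and 27.7 CPM against 33.8, 32.0 and 32.4 CPM in the control and PELO lines (0.30 ± 0.07, adjusted p = 0.00192). E2F1, itself an E2F factor, lay at 19.3, 19.9 and 19.9 CPM against 24.7, 25.8 and 26.8 CPM (0.39 ± 0.05, adjusted p = 5.01e-06). Both were higher in every PELO library. A match of letters is a description of the window and was not tested as a binding site.

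Mitosis and spindle genes moved the same way. All 34 had a positive log2 fold change, with a median of 0.23. Of them 21 were called higher and 0 lower, beside 6.37% and 4.72% of all genes. The summed level was 4322 to 4431 CPM in the control line and 4938 to 5226 CPM in the PELO line. UBE2C, the ubiquitin-conjugating enzyme of the anaphase-promoting complex, lay at 118, 113 and 106.8 CPM in the control libraries and 148, 149 and 159.9 CPM in the PELO libraries (0.44 ± 0.05, adjusted p = 8.54e-08). PTTG1, securin, which restrains separase until anaphase, lay at 75.7, 72.0 and 68.9 CPM in the control libraries and 92.8, 94.5 and 105 CPM in the PELO libraries (0.43 ± 0.05, adjusted p = 1.49e-07). AURKB, the kinase of the chromosomal passenger complex, lay at 59.9, 58.1 and 57.6 CPM against 72.2, 71.8 and 78.5 CPM (0.34 ± 0.05, adjusted p = 9.02e-06). MAD2L1 of the spindle checkpoint lay at 48.8, 44.6 and 46.9 CPM against 57.7, 62.0 and 63.4 CPM (0.39 ± 0.06, adjusted p = 6.38e-06). Of 47 replication-dependent histone genes, whose messages normally lack the polyA tail that these libraries select, 2 were higher and 2 lower. That is 8.51% called, under the 11.1% of all genes tested. H1-2 (0.41 ± 0.07, adjusted p = 7.2e-05) and H2BC13 (1.21 ± 0.25, adjusted p = 0.000976) were higher, the latter from 0.282 to 0.308 CPM up to 0.554 to 0.854 CPM. H2AC6 (-0.56 ± 0.08, adjusted p = 4.64e-06) and H2BC21 (-0.49 ± 0.09, adjusted p = 0.000197) were lower.

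Among 17 cyclins, kinases and inhibitors of G1, 4 were higher and 2 lower (35.3% called, beside 11.1% of all genes tested). CDK2, the kinase of cyclins E and A, lay at 37.2, 35.7 and 36.4 CPM against 44.0, 44.0 and 45.4 CPM (0.29 ± 0.04, adjusted p = 9.86e-06), and cyclin D3 (CCND3) at 17.3, 15.3 and 15.4 CPM against 19.3, 18.9 and 20.7 CPM (0.29 ± 0.07, adjusted p = 0.00488). CDK6, a partner of D cyclins, was lower, at 14.7, 15.7 and 16.9 CPM in the control libraries and 10.6, 11.3 and 9.24 CPM in the PELO libraries (-0.61 ± 0.09, adjusted p = 6.38e-06). CDKN1A, which encodes the CDK inhibitor p21, was lower too, at 8.74, 9.02 and 7.78 CPM in the control libraries and 5.54, 5.02 and 5.94 CPM in the PELO libraries (-0.63 ± 0.12, adjusted p = 0.000327). All 3 PELO libraries were below all 3 control libraries for both. Of 19 genes of the BCL2 family 2 were lower and 1 higher (BCL2L12), 15.8% called beside 11.1% of all genes tested. BBC3, the BH3-only protein PUMA, lay at 46.7, 47.7 and 43.5 CPM against 37.9, 35.3 and 37.5 CPM (-0.32 ± 0.06, adjusted p = 0.000112). HRK, another BH3-only protein, had a log2 fold change of -0.57 ± 0.10, adjusted p = 0.000107.

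**Figure D2:**
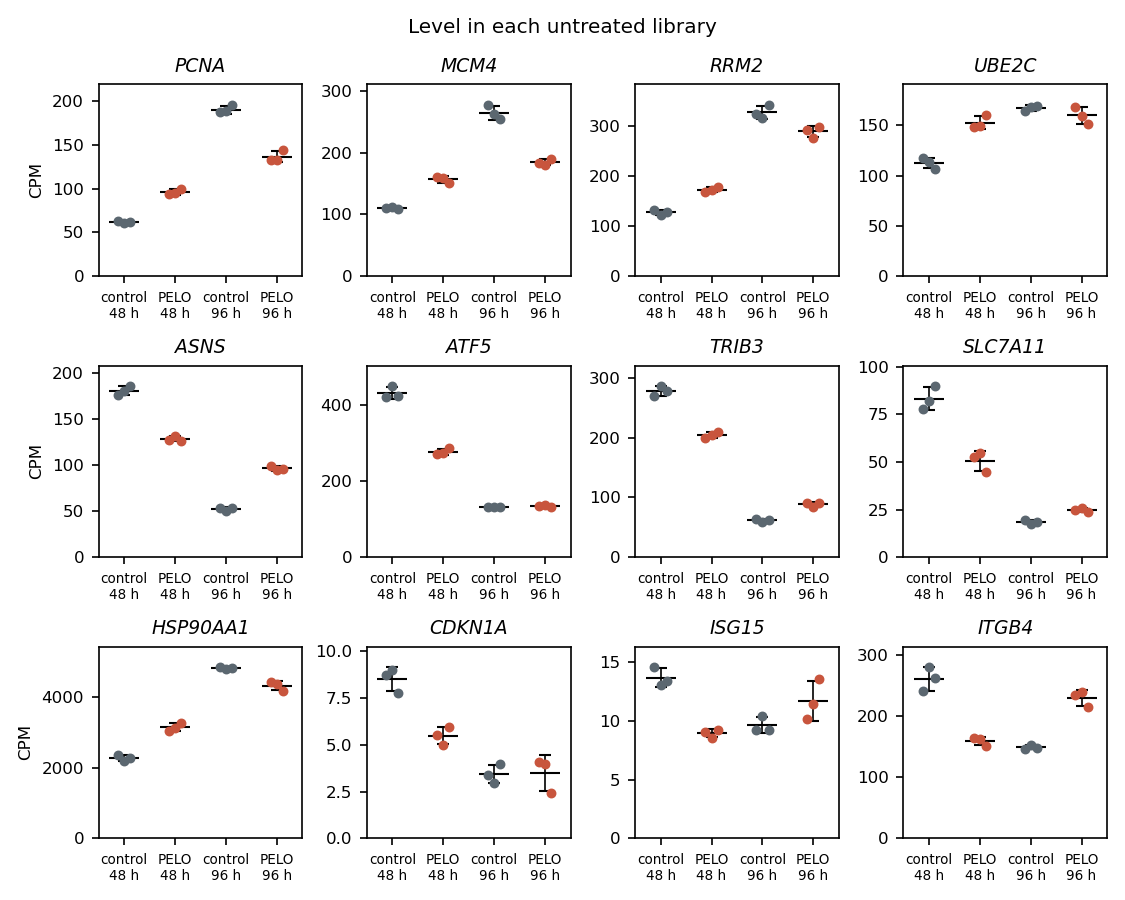
Level in CPM of 12 genes in each untreated library of the control line and the PELO line at 48 h and 96 h; points are libraries, bars the mean ± SD of 3, and each axis starts at 0. At 48 h the PELO libraries lie above the control libraries for PCNA, MCM4, RRM2, UBE2C and HSP90AA1 and below them for the other genes; at 96 h the order is turned for PCNA, MCM4, RRM2, HSP90AA1, ASNS, TRIB3, SLC7A11 and ITGB4.

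Genes of the integrated stress response were lower in the PELO line. Of 20 regulators tested, 11 were called lower and 1 higher, beside 4.72% and 6.37% of all genes, with a median of -0.17. The summed level was 2695 to 2784 CPM in the control line and 2277 to 2352 CPM in the PELO line. ATF5, a transcription factor translated under stress, lay at 420.4, 449 and 422 CPM in the control libraries and 270.4, 274 and 286 CPM in the PELO libraries (-0.64 ± 0.04, adjusted p = 1.01e-12); the exons of NUP62 and IL4I1 overlap part of it, on the other strand. TRIB3, a pseudokinase that restrains ATF4 and AKT, lay at 269.9, 286 and 277 CPM in the control libraries and 199, 204 and 209 CPM in the PELO libraries (-0.44 ± 0.06, adjusted p = 7.9e-07). NUPR1, a small stress-induced chromatin protein, lay at 25.9, 23.98 and 24.9 CPM in the control libraries and 13.9, 13.4 and 15.2 CPM in the PELO libraries (-0.81 ± 0.08, adjusted p = 1.26e-08). SESN2, which reports leucine to mTORC1, lay at 87.7, 98.4 and 97.7 CPM against 74.7, 73.8 and 72.6 CPM (-0.36 ± 0.07, adjusted p = 0.000318). In all 4 the lines were fully apart. The message of ATF4, named here for its role and outside the rule, lay at 559, 582 and 554 CPM against 458, 469 and 497 CPM (-0.25 ± 0.06, adjusted p = 0.00627); that of DDIT3, the factor CHOP, lay at 18.96, 17.1 and 17.8 CPM against 16.3, 15.1 and 19.2 CPM and was not called (-0.09 ± 0.08, adjusted p = 0.542). The single higher member was FOSL1, an AP-1 subunit (0.19 ± 0.05, adjusted p = 0.0162), whose call was lost without control replicate 3 (adjusted p = 0.0564).

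Amino acid and one-carbon enzymes showed the largest share of lower calls of any list. Of 21 tested, 15 were lower and 1 higher, beside 4.72% and 6.37% of all genes, with a median of -0.25. ASNS, which makes asparagine, lay at 177, 181 and 186 CPM in the control libraries and 128, 132 and 127 CPM in the PELO libraries (-0.49 ± 0.06, adjusted p = 1.37e-07); 44.6% of its exonic length is shared with another gene model on the same strand, so its counts are uncertain. ALDH1L2, the mitochondrial enzyme that oxidises formyltetrahydrofolate, lay at 7.35, 7.10 and 8.58 CPM in the control libraries and 4.22, 4.03 and 3.25 CPM in the PELO libraries (-1.003 ± 0.11, adjusted p = 7.75e-08). CBS, which opens transsulfuration, lay at 174, 181 and 172 CPM against 136, 135 and 142 CPM (-0.35 ± 0.04, adjusted p = 3.22e-08). GPT2, the mitochondrial alanine transaminase, lay at 104, 107.1 and 103 CPM against 83.7, 82.9 and 81.9 CPM (-0.34 ± 0.04, adjusted p = 5.09e-07). Each of these enzymes was lower in every PELO library. MTHFD1 was the higher member (0.13 ± 0.04, adjusted p = 0.036); that call was lost when either of 2 control libraries or either of 2 PELO libraries was left out (adjusted p = 0.0807 to 0.144).

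Of 15 amino acid transporters 7 were lower and 0 higher (median -0.16), 46.7% called beside 11.1% of all genes tested. SLC7A11, the cystine-glutamate exchanger, lay at 77.8, 82.0 and 89.8 CPM in the control libraries and 52.7, 54.7 and 44.8 CPM in the PELO libraries (-0.71 ± 0.08, adjusted p = 3.45e-07). Its partner SLC3A2 lay at 291, 306 and 284 CPM against 242, 239 and 244 CPM (-0.28 ± 0.05, adjusted p = 5.64e-05). The glycine transporter SLC6A9 (-0.63 ± 0.07, adjusted p = 5.39e-08) and the neutral amino acid transporter SLC1A4 (-0.54 ± 0.08, adjusted p = 5.43e-06) were lower as well. Of 20 cytosolic aminoacyl-tRNA synthetases 7 were lower and 0 higher (35% called). WARS1, for tryptophan, lay at 816, 859.8 and 868 CPM in the control libraries and 620.0, 639 and 629 CPM in the PELO libraries (-0.43 ± 0.04, adjusted p = 6.07e-10). SARS1 (-0.30 ± 0.04), GARS1 (-0.31 ± 0.04) and YARS1 (-0.24 ± 0.04) were lower, with adjusted p = 1.4e-07, 4.11e-07 and 1.08e-05. The 13 synthetases not called, such as AARS1 at 620.1, 683 and 659 CPM against 642, 648 and 611 CPM (-0.05 ± 0.04, adjusted p = 0.583), ran from -0.12 to 0.12 on the log2 scale.

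Secreted proteins that stress induces were mixed, with 5 of 15 lower and 2 higher (46.7% called, beside 11.1% of all genes tested). GDF15, a cytokine of the TGF-beta family, lay at 82.0, 85.9 and 80.6 CPM in the control libraries and 42.9, 41.3 and 47.4 CPM in the PELO libraries (-0.92 ± 0.08, adjusted p = 3.47e-09). FGF21, a hormone of fasting and mitochondrial stress, lay at 1.93, 1.87 and 2.09 CPM in the control libraries and 0.639, 0.819 and 1.001 CPM in the PELO libraries (-1.24 ± 0.19, adjusted p = 1.31e-05). VEGFA, the angiogenic factor, lay at 168, 162 and 161 CPM against 116, 121 and 121 CPM (-0.46 ± 0.05, adjusted p = 5.63e-08). INHBE, the inhibin beta E chain, lay at 11.4, 11.1 and 11.6 CPM against 7.48, 7.08 and 7.51 CPM (-0.62 ± 0.09, adjusted p = 3.9e-06). Each of the 4 was lower in every PELO library. ADM, adrenomedullin, lay at 4.16, 4.84 and 5.13 CPM against 7.10, 6.45 and 7.17 CPM (0.55 ± 0.09, adjusted p = 2.22e-05) and CXCL8, the neutrophil chemokine interleukin 8, at 106.7, 92.4 and 96.4 CPM against 119.6, 128 and 143 CPM (0.40 ± 0.09, adjusted p = 0.00321), both higher.

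The core of the C/EBP-ATF response element, TGATGCAA, is the sequence through which ATF4 acts on many such genes. It was searched on both strands of the same RefSeq windows and was in 252 of 27305 promoters (0.923%). It was in 2 of 17 windows of integrated stress response regulators, 3 of 13 of amino acid enzymes, 0 of 14 of transporters, 6 of 16 of tRNA synthetases and 1 of 13 of secreted factors. The 5 shown, with the match in capitals along the gene's strand, differ in their message changes; in all but MTHFD1L the match is on the opposite strand, and all but FGF21 were picked for their matches, outside the rule.
CHAC1 promoter, chr15:40953251-40953280 (+ strand): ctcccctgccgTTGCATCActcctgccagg
FGF21 promoter, chr19:48755459-48755488 (+ strand): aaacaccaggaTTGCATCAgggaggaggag
MTHFD1L promoter, chr6:150866346-150866375 (+ strand): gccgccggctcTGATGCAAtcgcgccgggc
MARS1 promoter, chr12:57488053-57488082 (+ strand): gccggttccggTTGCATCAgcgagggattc
AARS1 promoter, chr16:70289675-70289704 (- strand): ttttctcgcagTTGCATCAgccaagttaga
CHAC1, which degrades glutathione, lay at 31.4, 35.5 and 34.0 CPM against 27.0, 26.7 and 26.6 CPM (-0.33 ± 0.09, adjusted p = 0.00996) and was not called without control replicate 2 (adjusted p = 0.0651). MTHFD1L, the mitochondrial formate-producing enzyme, lay at 111, 116 and 112 CPM against 94.2, 96.3 and 97.3 CPM (-0.24 ± 0.04, adjusted p = 9.17e-05). MARS1, for methionine, lay at 286, 312 and 296 CPM against 257, 256 and 251 CPM (-0.23 ± 0.04, adjusted p = 0.000471). AARS1, for alanine, holds the same 8 letters and was not called. Windows were to hand for 13 of the 21 amino acid enzymes. No match was recorded for ASNS, which says only that these letters were not found.

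Genes of the unfolded protein response, which relieves stress in the endoplasmic reticulum, were split, with 8 of 25 members lower and 4 higher (median -0.01). That is 48% called, beside 11.1% of all genes tested. HSPA5, the chaperone BiP, lay at 1215, 1315 and 1315 CPM in the control libraries and 1059, 1062 and 1032 CPM in the PELO libraries (-0.29 ± 0.05, adjusted p = 3.34e-05). XBP1 (-0.26 ± 0.05, adjusted p = 0.000194), the factor spliced by IRE1, and HERPUD1 (-0.27 ± 0.04, adjusted p = 1.44e-05), of the degradation machinery, were lower too. CALR, the lectin chaperone calreticulin, was higher, at 596, 592 and 559.8 CPM against 689, 686 and 730.2 CPM (0.27 ± 0.04, adjusted p = 1.82e-05), as was SDF2L1, a BiP cofactor (0.39 ± 0.09, adjusted p = 0.00191). Of 20 genes of a heat shock list, which also holds the mitochondrial chaperonins HSPD1 and HSPE1, 7 were higher and 0 lower (35% called). HSP90AA1, inducible HSP90, lay at 2378, 2200.4 and 2272 CPM in the control libraries and 3046, 3135 and 3277 CPM in the PELO libraries (0.47 ± 0.04, adjusted p = 7.97e-10). HSPE1, the mitochondrial co-chaperonin, lay at 91.8, 77.9 and 76.4 CPM against 109, 112 and 128 CPM (0.51 ± 0.07, adjusted p = 5.94e-06), with part of its exons shared with HSPD1 and a readthrough model. AHSA1, which activates HSP90, had a log2 fold change of 0.23 ± 0.04, adjusted p = 0.000173, and HSP90AB1 one of 0.21 ± 0.04, adjusted p = 0.000189. HSPA1A and HSPA1B were not called.

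Interferon-stimulated genes leaned lower, with 10 of 36 lower and 2 higher (median -0.18), 33.3% called beside 11.1% of all genes tested. OASL, of the oligoadenylate synthetase family, lay at 14.6, 15.8 and 15.6 CPM in the control libraries and 7.91, 8.70 and 8.10 CPM in the PELO libraries (-0.90 ± 0.16, adjusted p = 0.000256). ISG15, a ubiquitin-like modifier, lay at 14.6, 13.1 and 13.4 CPM in the control libraries and 9.02, 8.58 and 9.26 CPM in the PELO libraries (-0.61 ± 0.09, adjusted p = 1.35e-05). The RNA sensors RIGI (8.20, 8.68 and 9.55 CPM against 5.88, 6.12 and 5.63 CPM) and IFIH1 (7.67, 8.16 and 8.46 CPM against 5.41, 6.14 and 4.72 CPM) had log2 fold changes of -0.58 ± 0.09, adjusted p = 2.21e-05 and -0.58 ± 0.10, adjusted p = 5.12e-05. The guanylate-binding proteins went the other way: GBP2 lay at 7.46, 7.24 and 7.10 CPM against 10.4, 9.61 and 10.6 CPM (0.49 ± 0.09, adjusted p = 0.000142) and GBP1 at 1.28, 1.30 and 1.36 CPM against 1.92, 2.09 and 2.11 CPM (0.64 ± 0.15, adjusted p = 0.00262). Of 15 genes of MHC class I antigen presentation NLRC5, its transactivator, was higher (0.36 ± 0.09, adjusted p = 0.00494), and HLA-E was lower (-0.15 ± 0.05, adjusted p = 0.0288) with a call that was lost without any one of 5 of the 6 libraries (adjusted p = 0.0569 to 0.166). Calls in this list came to 13.3%, near the 11.1% of all genes tested. Among 26 NF-kB subunits and targets 4 were lower and 2 higher (23.1% called). RELB, a subunit, lay at 35.8, 38.6 and 34.2 CPM against 30.7, 29.4 and 32.8 CPM (-0.22 ± 0.05, adjusted p = 0.002); the early response gene IER3 was lower (-0.37 ± 0.06, adjusted p = 2.35e-05) and the chemokine CXCL1 higher (0.26 ± 0.06, adjusted p = 0.00201).

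Immediate early genes leaned higher, with 7 of 23 higher and 3 lower (43.5% called, beside 11.1% of all genes tested). NR4A1, an orphan nuclear receptor, lay at 4.65, 5.18 and 4.44 CPM in the control libraries and 7.502, 7.15 and 7.53 CPM in the PELO libraries (0.63 ± 0.10, adjusted p = 4.32e-05). EGR1, a zinc finger factor, lay at 251, 236 and 245 CPM against 298, 295 and 277 CPM (0.25 ± 0.06, adjusted p = 0.00296). JUN lay at 103, 108 and 109.8 CPM against 133, 129 and 123 CPM (0.26 ± 0.06, adjusted p = 0.00194) and KLF6 at 224, 207 and 217 CPM against 242, 254 and 252 CPM (0.21 ± 0.04, adjusted p = 0.000129). Of 20 genes of RAS-MAPK output 3 were higher and 1 lower (20% called). EGR1, FOSL1 and IER3 among them are also counted with the immediate early genes. Of 24 YAP and TEAD targets 4 were higher and 1 lower (20.8% called). CCN1, a matricellular protein, lay at 303, 322 and 293 CPM against 379, 379 and 399 CPM (0.33 ± 0.05, adjusted p = 3.87e-05). CRIM1, a membrane-bound regulator of bone morphogenetic proteins, lay at 243, 260.2 and 258 CPM against 321, 326 and 286 CPM (0.29 ± 0.06, adjusted p = 0.00057).

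In metabolism, sterol and mitochondrial genes leaned higher. Of 23 genes of cholesterol synthesis and uptake 8 were higher and 0 lower (median 0.12), 34.8% called beside 11.1% of all genes tested. HSD17B7, a sterol 3-keto reductase, lay at 15.4, 15.1 and 15.6 CPM in the control libraries and 22.2, 21.3 and 22.2 CPM in the PELO libraries (0.51 ± 0.06, adjusted p = 4.66e-08). FDPS, farnesyl diphosphate synthase (0.22 ± 0.05, adjusted p = 0.000732), and INSIG1, which retains SREBP in the endoplasmic reticulum (0.20 ± 0.04, adjusted p = 0.000388), were higher by less. Among 14 genes of fatty acid synthesis 3 were higher, ELOVL6 the elongase among them (0.25 ± 0.06, adjusted p = 0.00507), and MLXIPL, the sugar-responsive factor ChREBP, was lower (-0.37 ± 0.09, adjusted p = 0.00652). Of 34 hypoxia and glycolysis genes 10 were higher and 2 lower (35.3% called). PGAM1, a phosphoglycerate mutase, lay at 232, 224 and 221 CPM against 257, 264 and 286 CPM (0.26 ± 0.06, adjusted p = 0.00215). P4HA2, a collagen prolyl hydroxylase, lay at 21.3, 22.3 and 22.8 CPM against 26.9, 27.3 and 28.4 CPM (0.32 ± 0.05, adjusted p = 3.8e-05). PDK1, which shuts pyruvate dehydrogenase, was lower at 17.9, 17.1 and 18.3 CPM against 13.4, 13.2 and 13.9 CPM (-0.40 ± 0.08, adjusted p = 0.000317).

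Of 76 nuclear-encoded respiratory chain genes 17 were higher and 0 lower, and 74 had a positive log2 fold change, with a median of 0.13. ATP5MC1, a subunit of the ATP synthase rotor, lay at 36.6, 35.6 and 33.9 CPM in the control libraries and 45.9, 48.2 and 51.4 CPM in the PELO libraries (0.45 ± 0.07, adjusted p = 6.38e-06). NDUFB3 of complex I lay at 21.9, 18.7 and 20.02 CPM against 26.0, 24.5 and 29.6 CPM (0.40 ± 0.07, adjusted p = 7.73e-05) and COX6B1 of complex IV at 74.9, 71.6 and 65.3 CPM against 85.3, 85.9 and 101 CPM (0.36 ± 0.08, adjusted p = 0.00154). For all 3 the highest value was that of PELO replicate 3, the library with the largest mitochondrial share; without it they had the same direction and were still called. By edgeR's quasi-likelihood test 0 of the 13 mitochondrially encoded genes were called, 0 had an unadjusted p under 0.05, and DESeq2 and limma-voom called 0. Their median was 0.26, and in 10 of 13 every PELO library was above every control library, as in 13.6% of all genes tested. Of 79 cytosolic ribosomal proteins 1 was higher (RPL24) and 0 lower, and of 36 ribosome biogenesis genes 2 were higher and 0 lower. Both shares, 1.27% and 5.56%, were under the 11.1% of all genes tested.

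Of 29 genes of ribosome rescue and ribosome quality control 4 were higher and 3 lower (24.1% called, against 11.1% of all genes tested), with a median of -0.01. Among all genes the share called rose with level, to 15.4% at 10 to 100 CPM and 20.7% over 100 CPM. The lists here were not matched for level, so their shares do not set them apart from other genes. GTPBP2, a GTPase related to HBS1L that acts in rescue, lay at 109, 118 and 115 CPM in the control libraries and 86.5, 83.2 and 81.3 CPM in the PELO libraries (-0.45 ± 0.06, adjusted p = 7.69e-07), and TCF25 of the quality control complex was lower by less (-0.20 ± 0.04, adjusted p = 0.00126). Among 18 genes of the SKI complex and the exosome 3 were higher and 0 lower, among them HBS1L, which the list holds. That is 16.7% called, beside 11.1% of all genes and 15.4% of those at 10 to 100 CPM. EXOSC3, an exosome cap subunit, lay at 17.8, 16.9 and 17.3 CPM against 20.03, 19.9 and 22.5 CPM (0.26 ± 0.06, adjusted p = 0.00246), and none of SKIC2, SKIC3 and SKIC8 was called. Of 15 nonsense-mediated decay factors 2 were lower (SMG5 and UPF3A), a share of 13.3% that is near the 11.1% of all genes. Of 20 small nucleolar RNA host genes 3 were lower and 1 higher (20% called).

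NRF2 targets were divided, with 4 of 29 higher and 6 lower (34.5% called, beside 11.1% of all genes tested). PRDX1, a peroxiredoxin, lay at 644, 609 and 611 CPM in the control libraries and 825, 804 and 867 CPM in the PELO libraries (0.42 ± 0.05, adjusted p = 1.79e-07). The aldo-keto reductase AKR1C1 lay at 119.7, 116 and 116 CPM against 155, 158 and 173 CPM (0.47 ± 0.06, adjusted p = 1.88e-07). The exporter ABCC3 lay at 2.97, 4.28 and 3.53 CPM against 2.69, 2.30 and 2.15 CPM (-0.61 ± 0.12, adjusted p = 0.000584) and FTH1, ferritin heavy chain, at 1815, 1791 and 1738 CPM against 1395, 1439.8 and 1631 CPM (-0.26 ± 0.05, adjusted p = 0.000175). The exons of FTH1 overlap a gene model of BEST1 over 62.4% of their length, on the other strand. Among 37 autophagy and lysosome genes 7 were lower and 3 higher (27% called). MAP1LC3B, the autophagosome protein LC3B, lay at 273, 267 and 277 CPM in the control libraries and 193, 199.9 and 211 CPM in the PELO libraries (-0.43 ± 0.05, adjusted p = 1.61e-08). The cargo receptor SQSTM1 (-0.27 ± 0.04, adjusted p = 6.38e-06), the lysosomal membrane protein LAMP3 (-1.13 ± 0.19, adjusted p = 5.81e-05) and TFE3, a factor that drives lysosome genes (-0.18 ± 0.03, adjusted p = 0.000386), were lower. The lysosomal enzymes CTSL (0.20 ± 0.05, adjusted p = 0.00277) and GLA (0.21 ± 0.05, adjusted p = 0.0018) were higher.

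At the cell surface, 6 of 19 epithelial and keratin genes were lower and 1 higher (36.8% called, beside 11.1% of all genes tested). ITGB4, the hemidesmosome integrin, lay at 242, 280.1 and 263 CPM in the control libraries and 164, 163 and 151 CPM in the PELO libraries (-0.72 ± 0.07, adjusted p = 1.49e-09). The hair keratins KRT81 (7.37, 7.28 and 8.17 CPM against 4.80, 4.46 and 5.04 CPM, -0.67 ± 0.10, adjusted p = 9.86e-06) and KRT86 (4.93, 5.21 and 4.35 CPM against 2.41, 2.37 and 2.65 CPM, -0.97 ± 0.13, adjusted p = 1.46e-06) were lower; they lie beside each other on chromosome 12 and are close in sequence, so reads shared between them are uncertain. MUC1, a membrane mucin, was lower by less (-0.32 ± 0.07, adjusted p = 0.00125). Of 24 mesenchymal and matrix genes 7 were lower and 1 higher (33.3% called), with COL6A1 of collagen VI at 115, 125 and 122 CPM against 106, 103 and 93.5 CPM (-0.26 ± 0.06, adjusted p = 0.00205).

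Several genes with the smallest p lay outside these lists. KLK6, a secreted kallikrein protease, lay at 63.3, 62.4 and 55.4 CPM in the control libraries and 36.5, 35.5 and 38.9 CPM in the PELO libraries (-0.71 ± 0.05, adjusted p = 5.86e-12). RBCK1, a subunit of the linear ubiquitin ligase, lay at 190.4, 195 and 177 CPM in the control libraries and 125, 123 and 133 CPM in the PELO libraries (-0.56 ± 0.04, adjusted p = 1.47e-11). UNC5B, a netrin receptor, lay at 33.3, 39.6 and 37.1 CPM in the control libraries and 16.7, 17.9 and 16.8 CPM in the PELO libraries (-1.10 ± 0.08, adjusted p = 1.47e-11). TM4SF1, a tetraspan membrane protein, was higher, at 393, 367 and 374 CPM in the control libraries and 531, 547 and 574 CPM in the PELO libraries (0.54 ± 0.04, adjusted p = 9.81e-11). NUP62, a nucleoporin whose exons overlap ATF5 on the other strand, lay at 41.4, 38.3 and 34.3 CPM against 55.1, 55.2 and 57.0 CPM (0.55 ± 0.05, adjusted p = 3.42e-10), opposite to ATF5. IVNS1ABP (149, 145 and 148 CPM against 213, 210.3 and 199 CPM, 0.49 ± 0.04, adjusted p = 5.76e-10) and the helicase EIF4A2 (567, 529 and 565 CPM against 753, 765 and 786 CPM, 0.47 ± 0.04, adjusted p = 6.07e-10) were higher.

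The largest falls and rises were looked for among called genes with a mean of at least 1 CPM over the 6 libraries and no overlap between the lines. FLG, filaggrin of the cornified epidermis, lay at 1.81, 2.29 and 1.499 CPM in the control libraries and 0.490, 0.314 and 0.286 CPM in the PELO libraries (-2.39 ± 0.33, adjusted p = 5.6e-06). PHKA2-AS1, an antisense transcript with 64.2% of its exonic length under PHKA2, lay at 3.06, 3.93 and 3.901 CPM against 1.32, 0.941 and 0.894 CPM (-1.80 ± 0.18, adjusted p = 6.26e-09). KLHDC7B lay at 8.73, 10.6 and 9.28 CPM against 3.64, 3.82 and 2.61 CPM (-1.51 ± 0.15, adjusted p = 1.26e-08). SRPX, a sushi-domain protein, lay at 1.76, 1.57 and 1.62 CPM against 0.490, 0.732 and 0.536 CPM (-1.47 ± 0.17, adjusted p = 6.46e-08). S100P, a calcium-binding protein of pancreatic tumours (-1.40 ± 0.20), the antiprotease SERPINA1 (-1.346 ± 0.13), the microtubule protein MAP2 (-1.23 ± 0.12) and ankyrin G, ANK3 (-1.15 ± 0.13), followed, with adjusted p = 5.92e-06, 1.89e-09, 6.78e-09 and 1.36e-07. Lines that do not overlap were a condition of this choice, so their separation is no support. FLG and SRPX, and EPGN and AIM2 among the rises below, were over 1 CPM in only 1 line. The largest rises were smaller. EPGN, a ligand of the EGF receptor, lay at 0.567, 0.599 and 0.780 CPM in the control libraries and 1.599, 1.41 and 1.68 CPM in the PELO libraries (1.27 ± 0.17, adjusted p = 1.67e-06). AIM2, a sensor of cytosolic DNA, lay at 0.680, 0.916 and 0.862 CPM against 1.75, 2.41 and 1.64 CPM (1.24 ± 0.19, adjusted p = 1.57e-05). PIK3CG, a catalytic subunit of PI3 kinase, lay at 1.28, 1.25 and 1.56 CPM against 2.86, 3.00 and 2.74 CPM (1.07 ± 0.15, adjusted p = 2.15e-06). SPOCK1 (0.997 ± 0.17), the protease MMP3 (0.92 ± 0.19), the GTPase RAC2 (0.91 ± 0.12), BMP6 (0.88 ± 0.11), KIAA1549L (0.81 ± 0.10), GALNT18 (0.76 ± 0.09), cadherin 10, CDH10 (0.73 ± 0.10), and BTN3A2 (0.73 ± 0.09) were among the 15 largest.

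Just 2 genes were near silent in 1 line, meaning at most 3 counts in each of its libraries and at least 10 in each of the other. COL10A1, collagen X, chromosome 6, 116118923 to 116158747, had 0, 2 and 0 counts in the control line and 17, 19 and 16 in the PELO line, a ratio of 25.7 with a 95% counting interval of 6.77 to 218. CRNN, cornulin, chromosome 1, 152409243 to 152414263, had 53, 42 and 38 counts in the control line and 0, 3 and 0 in the PELO line, a ratio of 44.8 (15 to 220). Both genes were taken by the rule from these same counts, so the intervals are no test. They rest on counts summed over libraries and leave out the spread between libraries. The HBS1L line lay between them, with 4, 5 and 4 counts of COL10A1 and 21, 22 and 14 of CRNN. At 96 h neither gene met the rule, with 1, 2 and 2 against 0, 0 and 0 counts of COL10A1 and 34, 32 and 22 against 14, 27 and 14 of CRNN. By chromosome, median log2 fold changes of nuclear genes ran from -0.0525 on chromosome 7 (53 higher and 77 lower of 984) to 0.0319 on chromosome 14 (53 higher and 26 lower of 663).

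The same contrast at 96 h differed from the one at 48 h in many genes. There 4532 genes were called (21.8%), 2144 higher (10.3%) and 2388 lower (11.5%), and the 2 contrasts share no library. Of the 814 genes called at both times, 304 had the same direction (13.2% of the 48 h calls and 6.71% of the 96 h calls) and 510 the opposite one (22.1% and 11.3%). The contrast itself differed between the times in 3541 genes (17.1%), more positive at 96 h in 1531 (7.37%) and more negative in 2010 (9.68%), among them 1298 of the 2303 called at 48 h. Submitters' library numbers run in separate stretches for 48 h and 96 h, and the labels do not say whether these were separate batches. Time and number stretch cannot be told apart, and each contrast was taken within a time. Within a time the numbers run in order of group, so line and number cannot be told apart either. Replicate 3 stood apart at 96 h too, in both lines, with a chi-square per degree of freedom of 18.7 to 24.2 for its pairs against 4.84 and 2.66 for replicates 1 and 2; leaving out 1 library at a time gave 3279 to 4539 calls at 96 h and 3010 to 3468 for the difference.

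**Figure D3:**
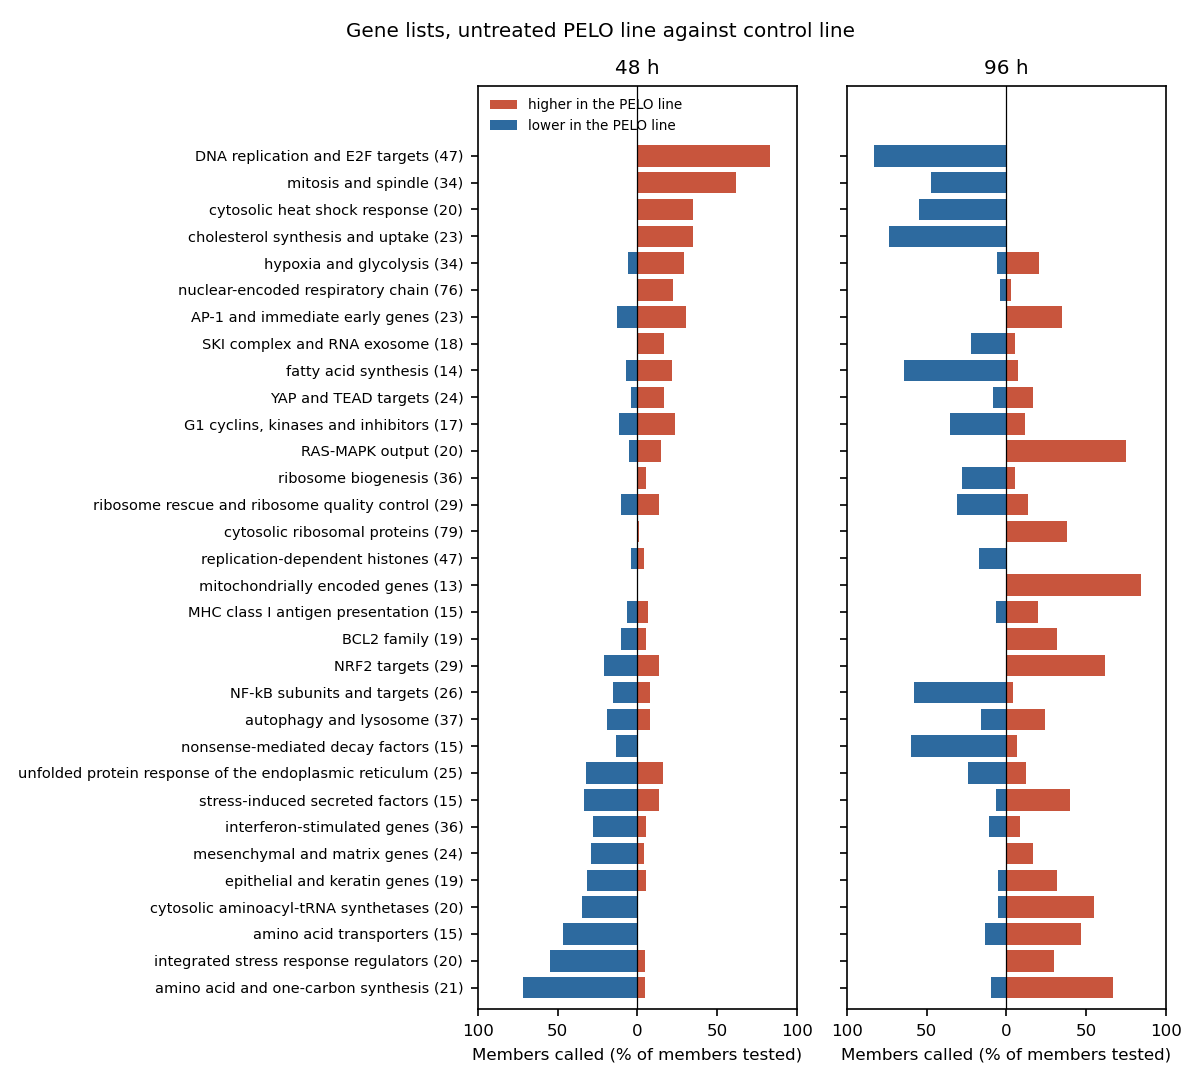
Members called in each gene list at 48 h (left) and 96 h (right), as a percentage of the members tested, whose number is given after each name; bars to the right are higher and bars to the left lower in the untreated PELO line. DNA replication has 39 of 47 higher at 48 h and 39 of 47 lower at 96 h, and amino acid synthesis 15 of 21 lower and then 14 of 21 higher.

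DNA replication genes were turned: at 96 h 0 were higher and 39 of 47 lower, with a median of -0.40, and the contrast differed between the times in 46 of 47. PCNA lay at 187, 188 and 195 CPM in the control line and 133, 133 and 143 CPM in the PELO line (-0.48 ± 0.05, adjusted p = 2.63e-08), with a difference between the contrasts of -1.122 ± 0.08, adjusted p = 4.94e-13. MCM4 lay at 264 ± 11.4 CPM in the control line and 184 ± 4.88 CPM in the PELO line (mean ± SD, -0.52 ± 0.05, adjusted p = 5.83e-10). Both genes were higher in each line at 96 h than at 48 h, and by more in the control line. Mitosis genes had 16 of 34 lower at 96 h and 0 higher. Amino acid enzymes went the other way, with 14 of 21 higher and 2 lower and a median of 0.26. ASNS lay at 53.9, 49.99 and 54.1 CPM in the control line and 99.6, 94.8 and 95.8 CPM in the PELO line (0.88 ± 0.06, adjusted p = 4.51e-13). SLC7A11 lay at 18.7 ± 1.02 CPM in the control line and 24.8 ± 1.16 CPM in the PELO line (0.40 ± 0.09, adjusted p = 0.00139). These levels were below those of 48 h in both lines, by more in the control line. Of the 20 stress response regulators 6 were higher and 0 lower at 96 h, with a median of 0.07, and the contrast differed between the times in 12. Heat shock genes had 11 of 20 lower, cholesterol genes 17 of 23 lower, NRF2 targets 18 of 29 higher and RAS-MAPK output 15 of 20 higher at 96 h.

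**Figure D4:**
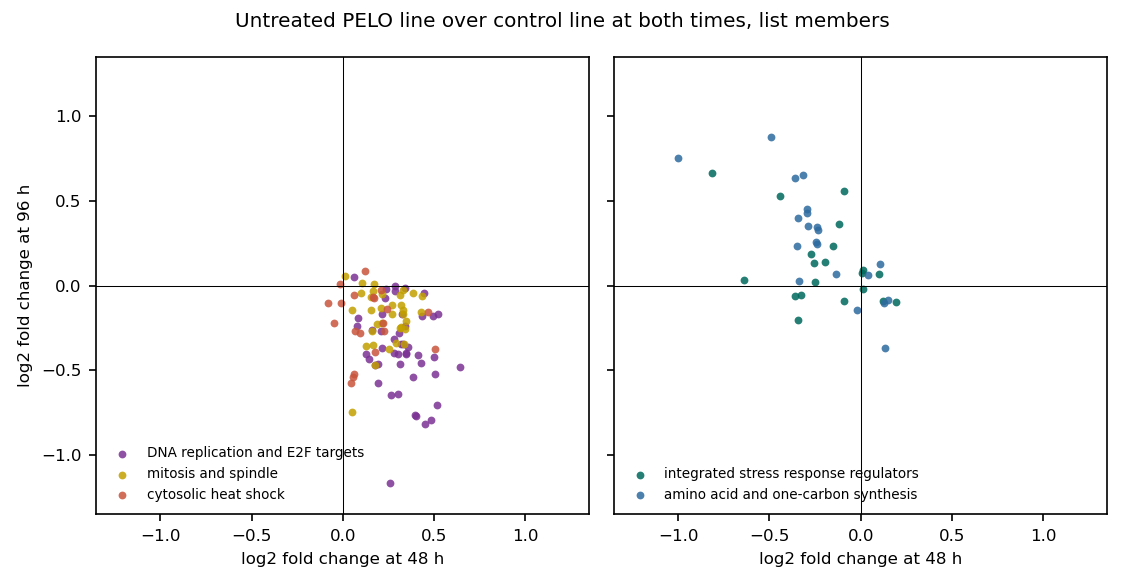
Log2 fold change of the untreated PELO line over the control line at 48 h (x axis) and 96 h (y axis) for members of 5 gene lists. At the lower right lie 46 of 47 replication genes, 31 of 34 mitosis genes and 15 of 20 heat shock genes, and at the upper left 15 of 21 amino acid synthesis genes. The 20 integrated stress response regulators have a median of -0.17 at 48 h and 0.07 at 96 h.

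A smaller set held its direction. EIF4A2 had a log2 fold change of 0.47 at 48 h and 0.45 ± 0.04, adjusted p = 6.01e-10 at 96 h, and IVNS1ABP of 0.49 and 0.47 ± 0.04, adjusted p = 7.62e-10. AKR1C1 was higher at both times (0.47 and 0.64 ± 0.06, adjusted p = 1.4e-10), as were AKR1C2 (0.41 and 0.51 ± 0.07, adjusted p = 3.61e-07), EPGN (1.27 and 0.78 ± 0.26, adjusted p = 0.0294), CXCL8 (0.40 and 0.59 ± 0.09, adjusted p = 2.13e-05), IL1B (0.47 and 0.44 ± 0.15, adjusted p = 0.0293), RAB3A (0.48 and 0.47 ± 0.11, adjusted p = 0.00148) and SLC66A1L (0.46 and 0.54 ± 0.10, adjusted p = 0.000137). For these 9 genes the difference between the times was not called. AKR1C1 and AKR1C2 are close in sequence, so reads shared between them are uncertain. Lower at both times were SRPX (-1.47 and -0.54 ± 0.14, adjusted p = 0.00352), ANKEF1 (-1.05 and -0.54 ± 0.17, adjusted p = 0.016), the long noncoding RNA ENSG00000236366 (-0.82 and -0.86 ± 0.17, adjusted p = 0.000207) and the cytokine receptor IL21R. IL21R lay at 5.14, 4.81 and 3.94 CPM in the control libraries and 3.24, 3.21 and 3.15 CPM in the PELO libraries at 48 h (-0.54 ± 0.11, adjusted p = 0.000816) and at 2.57, 2.38 and 2.09 CPM in the control line and 0.678, 0.800 and 0.827 CPM in the PELO line at 96 h (-1.61 ± 0.15, adjusted p = 5.17e-10), where the contrast was larger (-1.07 ± 0.19, adjusted p = 6.17e-05). On the authors' log2 table the 48 h call was lost (adjusted p = 0.0924).

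The untreated HBS1L line at 48 h was compared with the same control libraries, so its values stand beside those of the PELO line and are no independent support. Against the control line it had 7874 genes called (37.9%), 3887 higher and 3987 lower, and the PELO and HBS1L lines differed from each other in 6176 (29.7%). In the HBS1L line 43 of 47 replication genes were higher and 15 of 21 amino acid enzymes lower. Medians were 0.46 and -0.24, beside 0.31 and -0.25 in the PELO line. Of mitosis genes 23 of 34 were higher. Lower were 11 of 20 stress response regulators (median -0.25), 12 of 15 amino acid transporters and 24 of 36 interferon-stimulated genes. In the PELO line 11, 7 and 10 of these were lower. Of all genes 18.7% were higher and 19.2% lower in the HBS1L line. PCNA was at 118, 116 and 119.6 CPM and ASNS at 131, 126 and 122 CPM. The HBS1L line did not share every difference: KLK6 was at 61.0, 59.5 and 58.5 CPM (-0.02 ± 0.05, adjusted p = 0.819). SERPINA1 lay at 5.37, 5.205 and 5.75 CPM (-0.19 ± 0.11, adjusted p = 0.196). FLG lay at 2.53, 2.61 and 1.93 CPM (0.33 ± 0.23, adjusted p = 0.292) and SRPX at 1.63, 1.63 and 1.72 CPM (0.01 ± 0.14, adjusted p = 0.968). For none of the 4 was the HBS1L line called against the control line, and for each the PELO and HBS1L lines differed (adjusted p = 1.19e-11, 7.67e-08, 5.66e-07 and 7.73e-08). The 4 were picked as examples of a difference that is not shared, from genes named for their change in these same PELO libraries. Neither the missing calls nor these p-values are independent support. How many of the largest changes the HBS1L line shares was not counted. Of the 76 respiratory chain genes 75 were higher in the HBS1L line and 17 in the PELO line; the mitochondrial share was 3.57 to 3.77% in the HBS1L libraries.

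**Figure D5:**
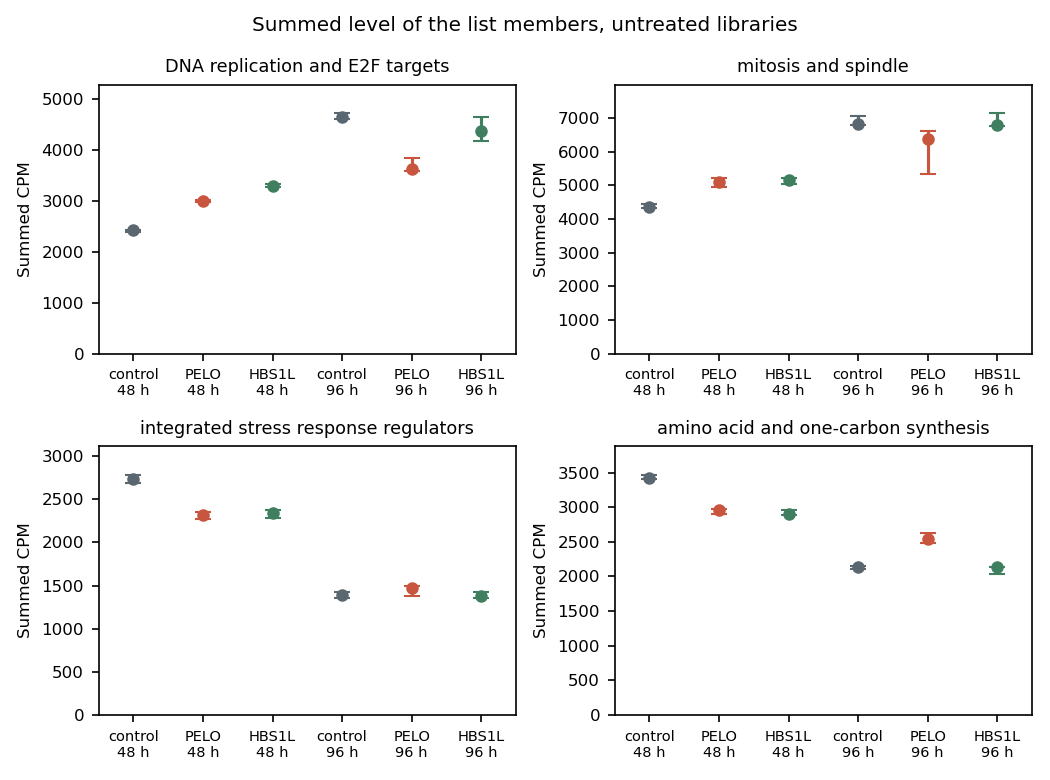
Summed CPM of 4 gene lists in the untreated libraries of the control, PELO and HBS1L lines at 48 h and 96 h; points are medians of 3 libraries and bars run from the lowest to the highest, with axes from 0. At 48 h the control line has the lowest replication sum (2380 to 2417 CPM) and the highest stress response sum (2695 to 2784 CPM) of the 3 lines.

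Summed levels in the lines with doxycycline stand beside the untreated ones as values, with no test. The integrated stress response regulators summed to 1280 to 1293 CPM in the control line with doxycycline at 48 h, under the 2695 to 2784 CPM without it, and to 3420 to 3515 CPM in the PELO line with doxycycline, over the 2277 to 2352 CPM without it. The replication genes summed to 3512 to 3598 CPM in the control line with doxycycline and to 3187 to 3321 CPM in the PELO line with it.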

How the data were processed

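Polyadenylated RNA of MIA PaCa-2 cells was sequenced in 36 libraries, in 12 groups of 3. The authors deposited a table of expected counts per gene, of which 45.6% of values above 0 are not whole. Tools listed, per the submitters' processing notes, are edgeR, limma, featureCounts, Subread and DRAGEN, with the build GRCh38.p13. For versions, roles and strand setting: not given in the sources used here. Also deposited by the authors was a log2 table of 17138 genes, which equals the log2 of the count plus 0.5 and a constant per library (largest deviation 5.2e-14) and lacks 55 of 8114 genes with a mean over 1000 counts.

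Counts were rounded. Genes were kept by filterByExpr (minimum count 10, minimum total 15), scaled by TMM, and fitted with edgeR's robust quasi-likelihood test over all 36 libraries and 12 group means, with Benjamini-Hochberg adjustment over 20767 genes; the SE is the log2 fold change over the root of F. The members and lists were chosen with earlier results of these data known. Some genes belong to several lists, so the list counts are not independent of each other. Named were PELO, HBS1L and ITGA1; per list up to 4 genes of smallest p in its main direction and 2 in the other; the 15 largest rises and falls with a mean of at least 1 CPM and no overlap; the 10 smallest p; the 10 largest rises and falls at both times; and near-silent genes. Not every gene of the rule is described, and 1 of the lists is not reported here; CHAC1, AARS1, MARS1, MTHFD1L, CDC6, E2F1, MCM6, ATF4 and DDIT3 fall outside it. Depths of 45356024 to 56228942 counts put 3 counts at 0.0523 to 0.0639 CPM, and intervals cover counting error only. Promoters came from RefSeq (GRCh38.p14). R 4.3.3, edgeR 4.0.16, limma 3.58.1, DESeq2 1.42.0, Python 3.11.15 and matplotlib 3.10.9 were used. Alternatives were other scalings, filters, tools and sample sets, a replicate block and leaving out each library.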

Additional observations from a re-analysis of the deposited data

Results flagged for a closer look

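The untreated PELO to control contrast differed between 96 h and 48 h, by a test of the difference itself, in 3541 of 20767 genes (17.1%) in edgeR's quasi-likelihood fit. The values that follow are that difference, the log2 fold change at 96 h minus the one at 48 h, for the genes described above whose difference was called. Time and the stretch of library numbers cannot be told apart.

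The difference was positive for these genes: AARS1 0.26, ABCC3 1.68, ALDH1L2 1.76, ANK3 0.65, ASNS 1.37, ATF4 0.27, ATF5 0.67, BBC3 0.41, CBS 0.58, CCN1 0.30, CDK6 0.69, CDKN1A 0.65, COL6A1 0.24, DDIT3 0.65, EGR1 0.34, FGF21 1.56, FLG 2.29, FTH1 0.50, GARS1 0.57, GDF15 1.49, GPT2 0.37, GTPBP2 0.43, HERPUD1 0.23, HLA-E 0.38, HRK 0.73, IER3 0.43, IFIH1 0.70, INHBE 1.20, ISG15 0.90, ITGB4 1.34, KLHDC7B 0.97, KLK6 0.52, KRT81 2.06, KRT86 2.91, LAMP3 1.46, MAP1LC3B 0.47, MAP2 1.22, MARS1 0.43, MTHFD1L 0.48, MUC1 0.39, NUPR1 1.48, OASL 1.31, PDK1 0.71, PHKA2-AS1 1.55, RBCK1 0.85, RIGI 0.56, S100P 2.26, SARS1 0.58, SERPINA1 1.44, SESN2 0.30, SLC1A4 0.71, SLC3A2 0.41, SLC6A9 0.74, SLC7A11 1.117, SQSTM1 0.22, SRPX 0.93, TFE3 0.21, TRIB3 0.97, UNC5B 1.40, VEGFA 0.73, WARS1 0.67, XBP1 0.42 and YARS1 0.49.

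It was negative for these: ADM -0.83, AHSA1 -0.49, AIM2 -1.64, ATP5MC1 -0.57, AURKB -0.60, BMP6 -0.51, BTN3A2 -0.61, CALR -0.49, CCND3 -0.50, CD68 -0.41, CDC6 -0.95, CDH10 -1.14, CDK2 -0.53, COX6B1 -0.40, CRIM1 -0.24, CXCL1 -0.46, DTL -0.68, E2F1 -0.93, ELOVL6 -0.61, EXOSC3 -0.51, FDPS -0.50, FOSL1 -0.29, GALNT18 -0.82, GBP1 -0.76, GLA -0.30, H1-2 -0.77, H2BC13 -1.81, HSD17B7 -0.70, HSP90AA1 -0.62, HSP90AB1 -0.23, HSPE1 -0.88, IL21R -1.07, INSIG1 -0.51, JUN -0.28, KIAA1549L -0.80, MAD2L1 -0.43, MCM4 -1.02, MCM6 -0.58, MMP3 -1.42, MTHFD1 -0.24, NDUFB3 -0.60, NLRC5 -0.61, NR4A1 -0.54, NUP62 -0.88, P4HA2 -0.23, PCNA -1.122, PGAM1 -0.31, PIK3CG -1.37, PRDX1 -0.42, PTTG1 -0.59, RAC2 -0.64, RRM2 -0.61, SDF2L1 -0.85, SPOCK1 -1.02, TM4SF1 -0.26 and UBE2C -0.50.

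For the 2 genes near silence the fitted differences depend on the added prior count and are no measure of size: COL10A1 -8.29 and CRNN 4.72.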

How the results depend on the processing

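No named gene changed direction in any of the 17 alternatives at 48 h. Fitting only the 6 libraries compared gave 823 higher genes in place of 1322, and library totals gave 1518 lower in place of 981. Genes higher by 2-fold, 21 in all, came to 6 with a minimum count of 50 and to 8 each with DESeq2, with only the 6 libraries and on the authors' log2 table. Those lower by 2-fold, 70 in all, came to 30 with a minimum count of 50, 31 with DESeq2 and 28 on the log2 table. A rule of at most 1 count against at least 20 left 0 near-silent genes. The cause of these moves was not tested.

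Leaving out 1 library at a time gave 1580 to 1976 calls at 48 h, with 907 to 1234 higher, 662 to 742 lower, 18 to 24 higher by 2-fold and 52 to 71 lower by 2-fold. It gave 34 to 38 replication genes higher, 18 to 21 mitosis genes higher, 13 to 14 amino acid enzymes lower and 9 to 11 stress response regulators lower. Over all lists and alternatives, 128 of 1003 counts of higher or lower members moved by more than 1.5 times. Deviations of same-numbered libraries of the 2 lines had correlations of -0.054, 0.032 and -0.11 at 48 h and 0.099, 0.056 and 0.17 at 96 h. With 3 libraries per line these values cannot settle whether the numbers pair them. A replicate block gave 2148 calls and lost that of HBS1L (adjusted p = 0.0518).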
